A study of Homo sapiens with 3 samples.

Results

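The transcripts examined encode 9 proteins that store neutral lipid in droplets or release it again. They are the perilipins PLIN2 and PLIN3, the lipases PNPLA2, LIPE and MGLL, the lipase inhibitor HILPDA, and the acyltransferases DGAT1, DGAT2 and SOAT1. The genes were chosen by symbol, through the GENCODE name of each Ensembl identifier, and each of the 9 had 1 row among the 58884 gene rows of the count table. A total of 7 had a mean count of at least 50 over the libraries and are called measured below. PLIN2 and LIPE did not reach that mean.

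RNA had been sequenced from the human cell line LNCaP, established from a prostate cancer metastasis and responsive to androgens. After 24 h in complete medium, the cells had spent 72 h in medium that was 50% conditioned medium (CM) and held 2% fetal bovine serum. The library whose title ends in T came from cells in PPAT-CM, that ending in N from cells in PVAT-CM, and that ending in C from cells in control-CM. The series title gives PPAT as periprostatic adipose tissue, while the labels do not spell out PVAT. The number of tissue donors behind each CM is not stated in the labels used here. There was 1 library for each medium, hence no replicate, no p-value and no SD. Intervals in parentheses are 95% counting intervals, which leave out any difference between cultures.

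A lipid droplet is a core of triglyceride and cholesterol ester under a phospholipid shell that perilipins coat. DGAT1 and DGAT2 make the triglyceride from diacylglycerol, and SOAT1 esterifies cholesterol. PNPLA2, also called ATGL, removes the first fatty acid of a triglyceride, LIPE (hormone-sensitive lipase) the next, and MGLL the last. HILPDA, a target of hypoxia-inducible factor, binds and inhibits PNPLA2. Prostate cancer cells are known to take up fatty acids from neighbouring fat and to store cholesterol ester through SOAT1.

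Library totals were 16965584 counts in PPAT-CM, 14174241 in PVAT-CM and 16534649 in control-CM. Mitochondrial chromosome genes took 15.5% of the counts in PPAT-CM (Wilson interval 15.49 to 15.52), 21.1% in PVAT-CM (21.09 to 21.13) and 30.8% in control-CM (30.82 to 30.86). With scaling factors computed without these genes, the log2 ratio of PLIN3 between PPAT-CM and control-CM was 1.35 in place of 1.36, and all 27 ratios of the 9 genes moved by less than their counting error. Beyond scaling, the part of this gradient in the ratios below was not tested. All 10 luminal prostate markers, among them KLK3 and FOLH1, were measured, with summed levels of 3343, 4609 and 4512 CPM (counts scaled to library size by TMM) in PPAT-CM, PVAT-CM and control-CM. Of 11 adipocyte markers, ADIPOQ, LEP, FABP4, LPL and RBP4 had a count of 0 in every library, which allows up to 0.163, 0.210 and 0.198 CPM in the same order. The summed adipocyte marker level was 13.5 CPM in PPAT-CM, 15.6 in PVAT-CM and 13.0 in control-CM, and CFD alone had 111, 170 and 133 counts in that order. Leukocyte markers summed to 1.41, 1.12 and 0.593 CPM, with ITGAM at 21, 0 and 1 counts and CD14 at 5, 11 and 5. Endothelial markers summed to 1.90, 1.12 and 1.78 CPM, and 7 stromal markers had 534, 371 and 792 counts in all, mostly COL1A1.

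The promoters of the perilipin pair are shown first, because PLIN3 was the measured gene with the largest difference between media and PLIN2 was close to silent in all of them. RefSeq promoters (GRCh38.p14, 250 bases before to 50 after the start) were found for 5 of the 9 genes, in 6 entries, and 4 genes had no entry. Capitals mark matches to any of 6 motifs searched on both strands. ACGTG, the core of the hypoxia response element, and CACGTG, the E-box, which contains it, were 2 of these. The others were TTCNNNGAA, a STAT site, a loose NF-kB site of GGGA and CC with 4 free bases between, the PPAR/RXR site DR1 of AGGTCA repeated after 1 free base, and a steroid receptor element of AGAACA and TGTTCT with 3 free bases between.
PLIN3, chr19:4867618-4867917, minus strand: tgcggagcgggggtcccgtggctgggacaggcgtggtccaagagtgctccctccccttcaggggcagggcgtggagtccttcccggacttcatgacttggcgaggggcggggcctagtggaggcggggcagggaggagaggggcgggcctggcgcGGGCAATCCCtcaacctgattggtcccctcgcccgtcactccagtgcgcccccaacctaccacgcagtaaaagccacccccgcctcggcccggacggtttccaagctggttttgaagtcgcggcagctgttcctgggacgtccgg
PLIN2, chr9:19127443-19127742, minus strand: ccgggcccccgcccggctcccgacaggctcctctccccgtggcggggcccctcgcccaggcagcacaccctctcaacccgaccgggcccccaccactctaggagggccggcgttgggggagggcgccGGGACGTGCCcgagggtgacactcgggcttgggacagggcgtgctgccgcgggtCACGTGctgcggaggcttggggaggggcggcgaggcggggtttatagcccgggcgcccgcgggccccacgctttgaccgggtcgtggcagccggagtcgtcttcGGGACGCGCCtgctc
The PLIN3 window held 1 match, to the NF-kB motif, 95 to 86 bases before the start. That motif was present in 25.6% of the 35116 RefSeq promoter entries. The PLIN2 window held an E-box 69 to 64 bases before the start, a match found in 7.26% of entries. It also held a further ACGTG, found in 21.4% of entries, that lies inside an NF-kB match 123 to 114 bases before the start, and another NF-kB match after the start. The STAT motif (7.66% of entries), DR1 (0.0228%) and the receptor element (0.00285%) were in neither window. The SOAT1, PNPLA2 and LIPE entries held none of the 6 motifs. A match describes letters only, and binding was not measured.

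Of the coat proteins, PLIN3 transcripts were about as abundant in PVAT-CM as in control-CM and well above both in PPAT-CM. PLIN3 (ENSG00000105355), a perilipin that moves from the cytosol onto young droplets and was first described as a cargo sorting factor, lies on chromosome 19 from 4838341 to 4867768 on the minus strand (GRCh38). It had 634 counts in PPAT-CM, 193 in PVAT-CM and 203 in control-CM, or 34.5, 13.5 and 13.4 CPM. PPAT-CM thus stood alone at the high end, and the PVAT-CM and control-CM intervals (11.7 to 15.6 and 11.6 to 15.4 CPM) nearly coincided. PLIN3 was 2.58-fold higher in PPAT-CM than in control-CM (2.20 to 3.03) and 2.55-fold higher than in PVAT-CM (2.16 to 3.01). PVAT-CM against control-CM gave 1.01-fold (0.826 to 1.24), a direction that turned with upper quartile scaling. In the 2 comparisons with PPAT-CM the PLIN3 ratio lay at percentile 98.1 and 98.8 of all 12256 measured genes. An antisense gene shares 502 of its exon bases, 17.8% of them, but had no count in any library.

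PLIN2 (ENSG00000147872, chromosome 9, 19108375 to 19149290, minus strand), the perilipin found on droplets of most cell types, had 14 counts in PPAT-CM, 10 in PVAT-CM and 15 in control-CM. These are 0.761 CPM (0.416 to 1.28), 0.701 CPM (0.336 to 1.29) and 0.989 CPM (0.554 to 1.63), and all 3 intervals overlap. At this depth a difference as large as 1.71-fold higher or 2.90-fold lower in PPAT-CM than in control-CM could not be told from none. No exon of another annotated gene overlaps those of PLIN2. Per kilobase of exon, PLIN3 exceeded PLIN2 in every library.

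The other coat and droplet fusion genes were all below the filter, and some were nevertheless higher in PPAT-CM. PLIN1, the perilipin of adipocytes, had 89 counts in PPAT-CM, 27 in PVAT-CM and 13 in control-CM, 5.65-fold higher in PPAT-CM than in control-CM (3.14 to 11.0). PLIN5, the perilipin of oxidative tissues, had 17 counts in PPAT-CM and 0 in the other libraries, at least 4.67-fold above control-CM against a floor of 3 counts per library. PLIN4 had 33, 19 and 34 counts in PPAT-CM, PVAT-CM and control-CM, so PVAT-CM was the low library, with every ratio's interval including 1. CIDEA, CIDEB and CIDEC, which drive droplet fusion, had at most 1 count in any library. PLIN1 is also one of the adipocyte markers, and PLIN4, CIDEA and CIDEC are others. Of the rest, ADIPOQ, LEP, FABP4, LPL and RBP4 were at 0 throughout. CFD had 111, 170 and 133 counts and LIPE 14, 7 and 17 in PPAT-CM, PVAT-CM and control-CM. The source of the PLIN1 reads was not tested.

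**Figure D1:**
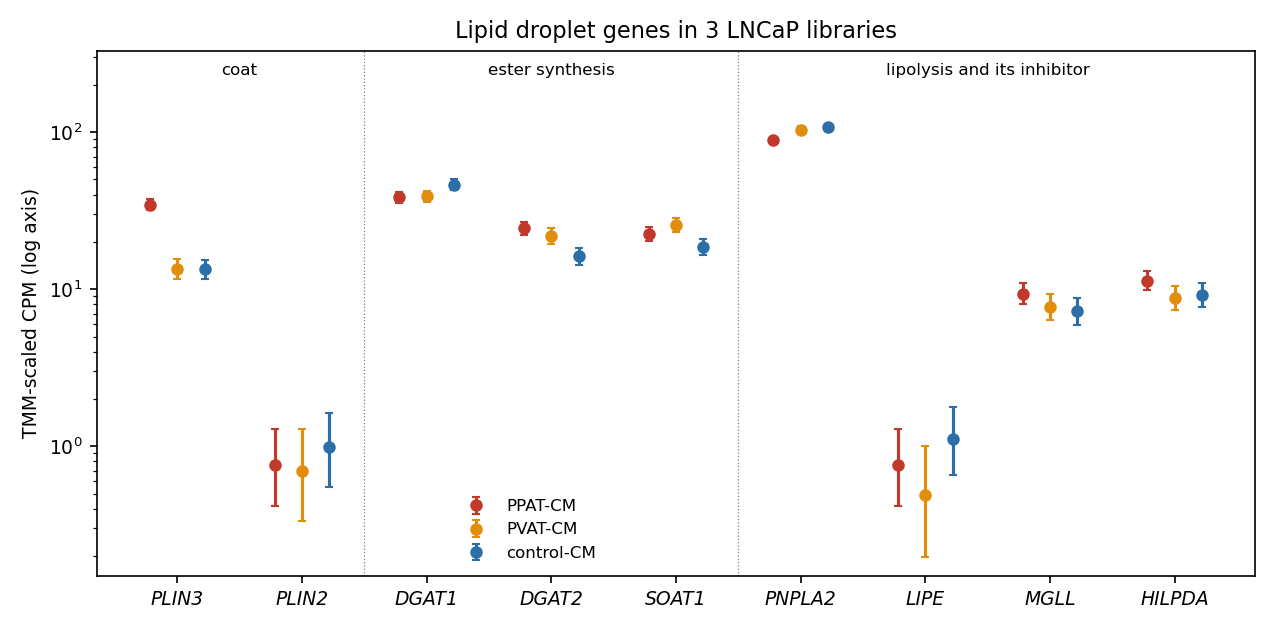
TMM-scaled CPM (log axis) of the 9 genes in PPAT-CM, PVAT-CM and control-CM, with exact Poisson 95% intervals, 1 library per medium. PLIN3 stands at 34.5 CPM in PPAT-CM against 13.5 and 13.4 CPM, while PLIN2 and LIPE stay near or below 1 CPM in each library.

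Among the ester-making enzymes, DGAT2 and SOAT1 were higher in PPAT-CM and in PVAT-CM than in control-CM, and DGAT1 was lower in both. DGAT2 (ENSG00000062282, chromosome 11, 75759512 to 75801535, plus strand), which acts on the droplet surface and the endoplasmic reticulum (ER), had 451 counts in PPAT-CM, 312 in PVAT-CM and 246 in control-CM. Its levels were 24.5, 21.9 and 16.2 CPM, with control-CM the low library. DGAT2 was 1.51-fold higher in PPAT-CM (1.29 to 1.77) and 1.35-fold higher in PVAT-CM (1.14 to 1.60) than in control-CM. The ratio of PPAT-CM to PVAT-CM was 1.12, with an interval that includes 1, so PPAT-CM and PVAT-CM were not separated.

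DGAT1 (ENSG00000185000, chromosome 8, 144314584 to 144326910, minus strand), an ER enzyme unrelated to DGAT2 in sequence, had 706 counts in PPAT-CM, 558 in PVAT-CM and 704 in control-CM. On the scaled level these were 38.4, 39.1 and 46.4 CPM, and here control-CM was the high library. DGAT1 was 1.21-fold lower in PPAT-CM (1.09 to 1.34) and 1.19-fold lower in PVAT-CM (1.06 to 1.33) than in control-CM. With total counts in place of TMM its log2 ratio of PPAT-CM to control-CM was -0.03 in place of -0.27, where the median of all genes was 0.27 in place of 0.03. HSF1, on the opposite strand, shares 139 of its exon bases, and had 1571, 942 and 966 counts in PPAT-CM, PVAT-CM and control-CM. The strand setting of the counting is not given in the sources used here.

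SOAT1 (ENSG00000057252, chromosome 1, 179293714 to 179358680, plus strand) had 414 counts in PPAT-CM, 366 in PVAT-CM and 282 in control-CM, or 22.5, 25.7 and 18.6 CPM. Control-CM was the lowest library, and PPAT-CM and PVAT-CM were not separated, at a ratio of 0.877 (0.760 to 1.01). SOAT1 was 1.21-fold higher in PPAT-CM (1.04 to 1.41) and 1.38-fold higher in PVAT-CM (1.18 to 1.62) than in control-CM. For PVAT-CM this was percentile 93.8 of all measured genes, and DGAT2 was at 92.5. Both comparisons share the control-CM library, so they are not independent.

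Of the lipases, PNPLA2 was per kilobase of exon the most abundant of the 9 transcripts, and LIPE and MGLL were among the 3 least abundant. PNPLA2 (ENSG00000177666, chromosome 11, 818902 to 825573, plus strand) had 1638 counts in PPAT-CM, 1471 in PVAT-CM and 1634 in control-CM, or 89.1, 103 and 108 CPM. PPAT-CM was the low library. PNPLA2 was 1.21-fold lower in PPAT-CM than in control-CM (0.827, 0.772 to 0.886, as a ratio) and 1.16-fold lower than in PVAT-CM (1.08 to 1.24), and with total counts its log2 ratio to control-CM was -0.03, under the same shifted median. PVAT-CM and control-CM were not separated, at 1.04-fold lower (0.972 to 1.12), a sign that turned with total counts.

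LIPE (ENSG00000079435, chromosome 19, 42401507 to 42427426, minus strand) had 14 counts in PPAT-CM, 7 in PVAT-CM and 17 in control-CM. Its 3 intervals overlap, and the ratio of PVAT-CM to control-CM, 0.438, had an interval that includes 1 (0.154 to 1.11). The antisense gene LIPE-AS1 shares 500 exon bases with it and had 14, 12 and 19 counts in PPAT-CM, PVAT-CM and control-CM. Without the strand setting, reads of this pair cannot be told apart.

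MGLL (ENSG00000074416, chromosome 3, 127689062 to 128052190, minus strand), which ends the cascade and also breaks down the endocannabinoid 2-AG, had 172 counts in PPAT-CM, 110 in PVAT-CM and 110 in control-CM. Its scaled levels were 9.35, 7.72 and 7.25 CPM, with PPAT-CM highest and overlapping intervals throughout. MGLL was 1.29-fold higher in PPAT-CM than in control-CM (1.01 to 1.65). Its other ratios had intervals that include 1.

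HILPDA (ENSG00000135245, chromosome 7, 128455849 to 128458418, plus strand) had 208 counts in PPAT-CM, 126 in PVAT-CM and 140 in control-CM, or 11.3, 8.84 and 9.23 CPM. PPAT-CM was again the highest, with an interval that overlaps both others. HILPDA was 1.28-fold higher in PPAT-CM than in PVAT-CM (1.02 to 1.61), and against control-CM the interval included 1 (0.984 to 1.53).

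**Figure D2:**
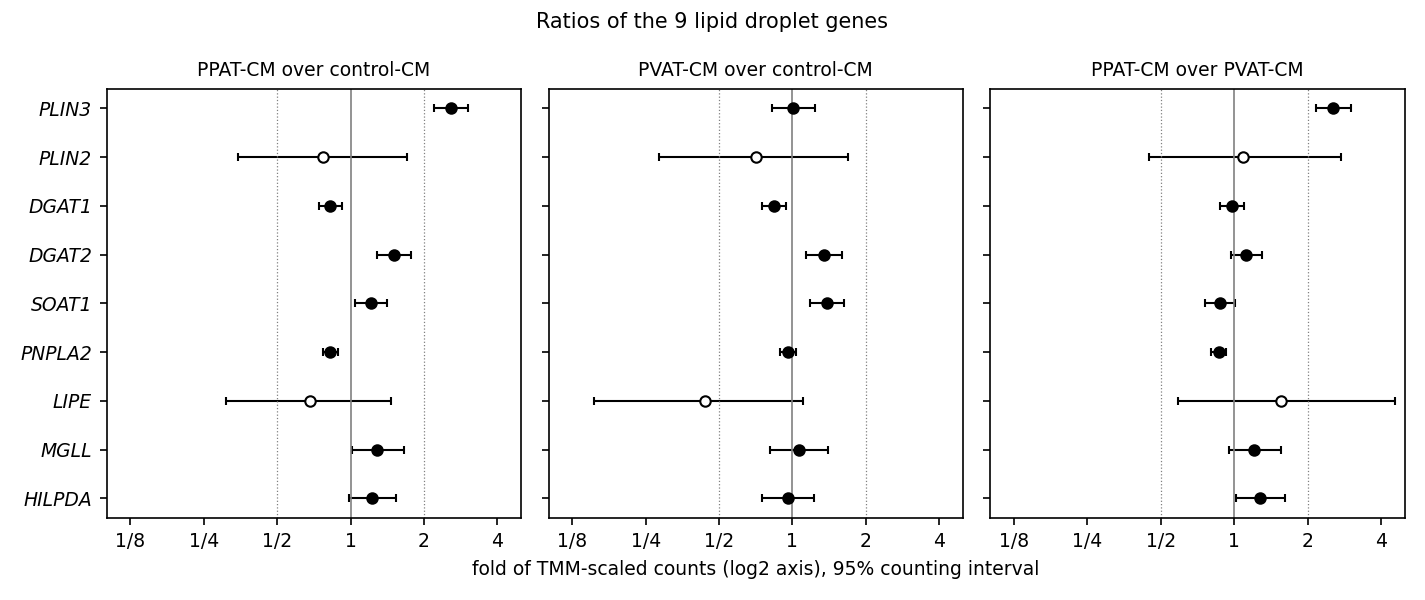
Folds of TMM-scaled counts (log2 axis) for the 9 genes in the 3 comparisons, with exact binomial 95% intervals that cover counting error only; open points are PLIN2 and LIPE, which are below the filter, and dotted lines mark 2-fold. PLIN3 lies past 2-fold in both comparisons with PPAT-CM, at 2.58 and 2.55, and at 1.01 for PVAT-CM over control-CM.

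Counted over the measured genes, 1 of 7 (PLIN3) was at least 2-fold higher in PPAT-CM than in control-CM and 0 were at least 2-fold lower. Across all 12256 measured genes 3.93% passed the 2-fold threshold upward and 2.74% passed it downward in that comparison, 482 and 336 genes, which became 905 and 178 with total counts. At 1.5-fold, PLIN3 and DGAT2 were higher and 0 lower, beside 12.0% and 8.71% of all genes. DGAT2 sits on that threshold, and its log2 ratio was under it with upper quartile scaling (0.52), with TMM without mitochondrial genes (0.58) and with TMM from protein-coding nuclear genes (0.56). The median log2 ratio of the 7 genes was 0.29, against 0.03 over all measured genes. In PVAT-CM against control-CM, 0 of 7 were past 2-fold, where 0.465% of all genes were higher and 0.441% lower, 57 and 54 genes, or 100 and 31 with total counts. None of the 7 passed 1.5-fold either, beside 3.15% higher and 3.49% lower, and the medians were 0.02 for the 7 genes and 0.02 for all genes. PPAT-CM against PVAT-CM had PLIN3 past 2-fold and no other, beside 2.45% of all genes higher and 1.47% lower, 300 and 180 genes, or 409 and 123 with total counts. At 1.5-fold it was again PLIN3 alone, beside 8.56% higher and 6.07% lower, with medians of 0.16 for the 7 genes and 0.02 for all genes. The filter uses the mean of the 3 libraries, so a gene could pass it through a single library.

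**Figure D3:**
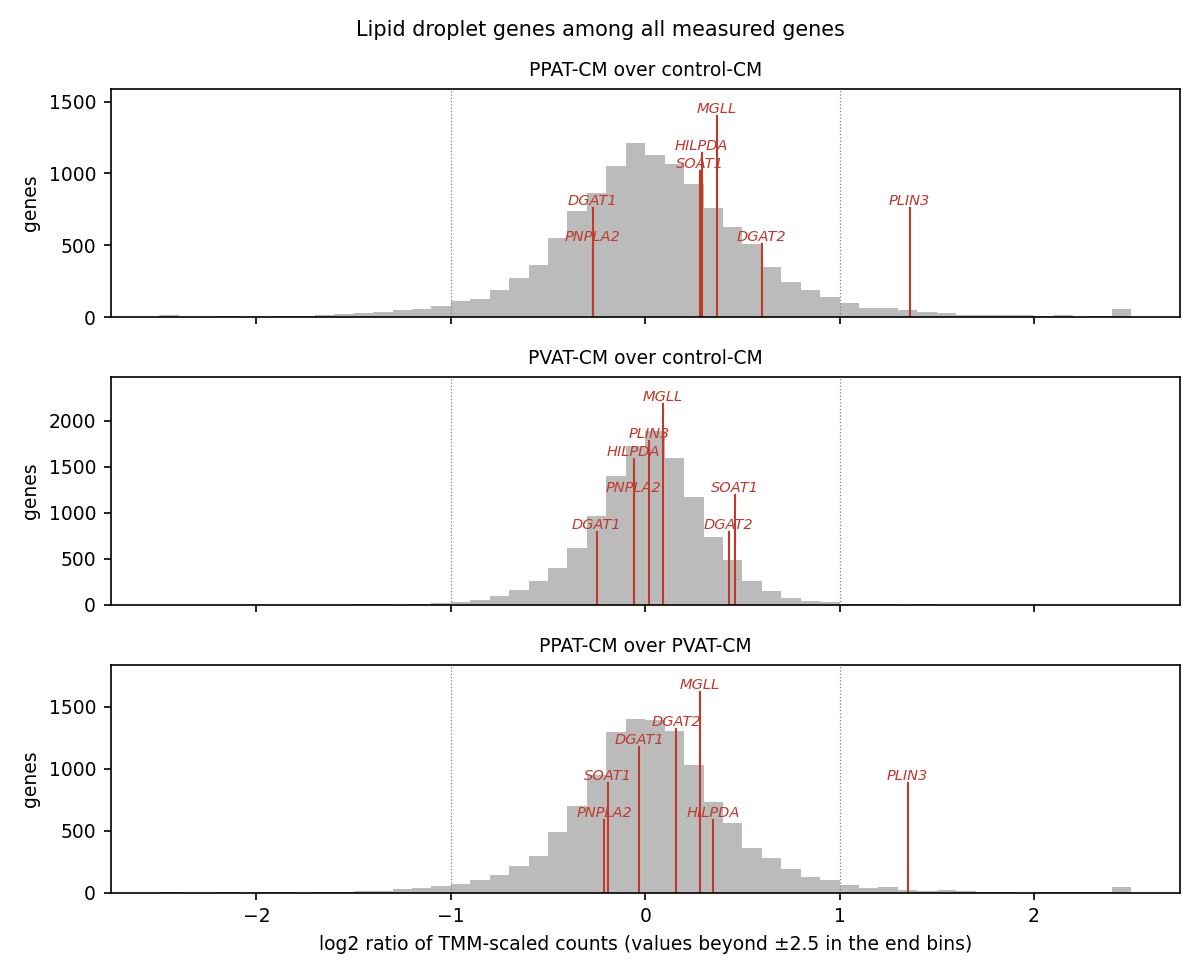
Histograms of the log2 ratio of TMM-scaled counts over all 12256 measured genes in each comparison, with the 7 measured lipid droplet genes as red lines whose heights carry no value, and dotted lines at 2-fold. In both comparisons with PPAT-CM only PLIN3 stands in the tail, at 1.36 and 1.35, and the other 6 lie inside the bulk.

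Levels of different genes were compared per kilobase of exon (CPM per kb). In PPAT-CM the order was PNPLA2 at 23.2, PLIN3 at 12.3, DGAT1 at 9.29, HILPDA at 5.46, SOAT1 at 3.21, DGAT2 at 3.10 and MGLL at 0.789, with PLIN2 at 0.150 and LIPE at 0.146. Within that order SOAT1 and DGAT2, and PLIN2 and LIPE, were not separated by their intervals. In PVAT-CM the level of PLIN3 was 4.81, behind PNPLA2 at 26.8 and DGAT1 at 9.47, and next to HILPDA at 4.27. Control-CM had the same first 4 places, with PNPLA2 at 28.0, DGAT1 at 11.2, PLIN3 at 4.76 and HILPDA at 4.46. The levels of SOAT1, DGAT2 and MGLL were 3.66, 2.77 and 0.651 in PVAT-CM and 2.65, 2.05 and 0.612 in control-CM. PLIN2 and LIPE stood at 0.138 and 0.0943 in PVAT-CM and at 0.194 and 0.215 in control-CM, not separated in either. PLIN3 was thus above DGAT1 only in PPAT-CM, and it could not be separated from HILPDA in the other media, nor HILPDA from SOAT1 in PVAT-CM. The median measured gene had 5.71, 5.54 and 5.54 CPM per kb in PPAT-CM, PVAT-CM and control-CM, so PNPLA2 and DGAT1 were above it and MGLL, SOAT1 and DGAT2 below it in each. Exon lengths from the GENCODE basic transcript set were an alternative chosen after the data were seen. They put PLIN3 at place 2 in PPAT-CM and place 5 in the other media. DGAT2 rose to place 4, 3 and 4 in PPAT-CM, PVAT-CM and control-CM, at 9.99, 8.92 and 6.61 CPM per kb. The median gene was not computed with basic lengths, so the place of DGAT2 below it holds only for the lengths used first.

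The summed counts of the 9 genes were 231 CPM in PPAT-CM (224 to 238), 221 in PVAT-CM (214 to 229) and 221 in control-CM (214 to 229), so the total differed little while its makeup did. PLIN3 supplied 14.9% of the 9 genes' counts in PPAT-CM (exact interval 13.9 to 16.0), 6.12% in PVAT-CM (5.31 to 7.02) and 6.06% in control-CM (5.27 to 6.92). PNPLA2 supplied 38.5% in PPAT-CM (37.1 to 40.0), 46.7% in PVAT-CM (44.9 to 48.4) and 48.8% in control-CM (47.1 to 50.5). DGAT1 supplied 16.6% in PPAT-CM, 17.7% in PVAT-CM and 21.0% in control-CM.

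Ratios of raw counts within a library do not depend on how libraries are scaled, and the pairs below were chosen after the values were seen. PLIN3 had 0.387 counts for each PNPLA2 count in PPAT-CM (0.353 to 0.424), 0.131 in PVAT-CM (0.112 to 0.153) and 0.124 in control-CM (0.107 to 0.144). The coat-to-lipase ratio was thus 3.11-fold higher in PPAT-CM than in control-CM (2.62 to 3.72), and in PVAT-CM it was 1.06 times that of control-CM (0.852 to 1.31). DGAT2 had 0.639 counts per DGAT1 count in PPAT-CM (0.566 to 0.720), 0.559 in PVAT-CM (0.485 to 0.643) and 0.349 in control-CM (0.301 to 0.405). That ratio was 1.83-fold higher in PPAT-CM (1.51 to 2.22) and 1.60-fold higher in PVAT-CM (1.3 to 1.97) than in control-CM, with no separation of PPAT-CM from PVAT-CM (1.14, 0.948 to 1.38). SOAT1 per DGAT1 was likewise lowest in control-CM, 1.46-fold higher in PPAT-CM (1.21 to 1.77) and 1.64-fold higher in PVAT-CM (1.35 to 1.99).

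HILPDA per PNPLA2, the inhibitor over its enzyme, was 0.127 in PPAT-CM (0.109 to 0.147), 0.0857 in PVAT-CM (0.0708 to 0.103) and 0.0857 in control-CM (0.0716 to 0.102). PPAT-CM stood above both, 1.48-fold higher than control-CM (1.18 to 1.87) and 1.48-fold higher than PVAT-CM (1.17 to 1.89). MGLL per PNPLA2 was 1.56-fold higher in PPAT-CM than in control-CM (1.21 to 2.02). Without any scaling, PLIN3, HILPDA and MGLL were high relative to PNPLA2 in PPAT-CM and not separated between PVAT-CM and control-CM. DGAT2 and SOAT1 were high relative to DGAT1 in both PPAT-CM and PVAT-CM. These patterns depend in part on the partner, since PNPLA2 was lower in PPAT-CM alone and DGAT1 was lower in both media. They therefore do not sort the genes into groups. PLIN3 per DGAT1 was 0.898 in PPAT-CM, 0.346 in PVAT-CM and 0.288 in control-CM.

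**Figure D4:**
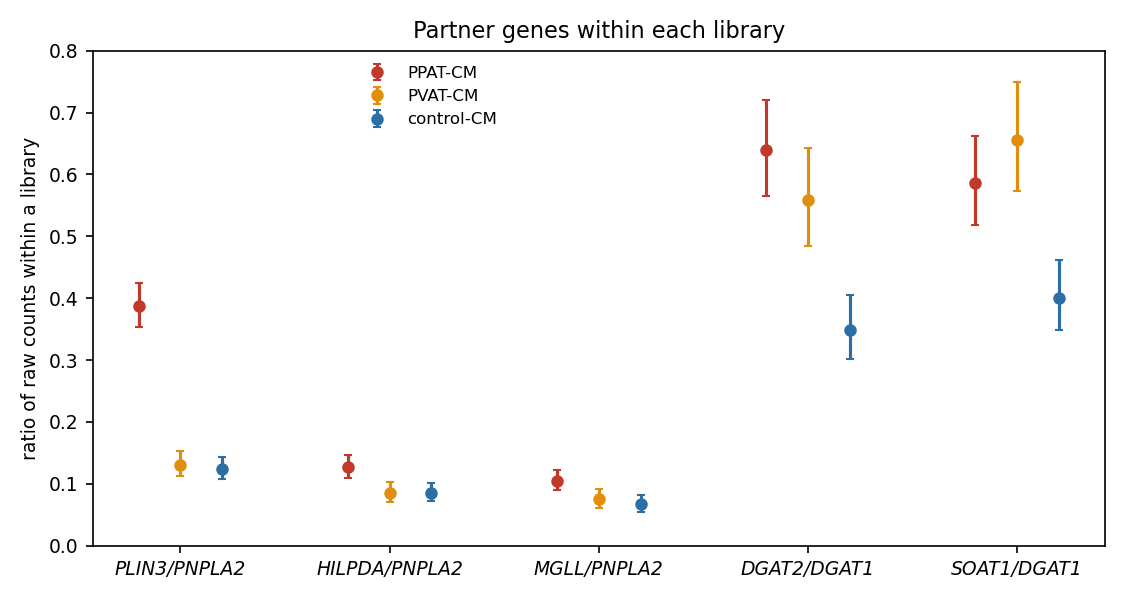
Raw counts of 1 gene divided by those of its partner in the same library, for 5 pairs in PPAT-CM, PVAT-CM and control-CM, with exact 95% counting intervals on a linear axis from 0. The 3 pairs over PNPLA2 are highest in PPAT-CM, with PLIN3/PNPLA2 at 0.387 against 0.131 and 0.124, and the 2 pairs over DGAT1 are lowest in control-CM.

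Among 8610 protein-coding genes with a mean count of at least 200, TUBA1C and HSD17B4 had the pairs of log2 ratios to control-CM that lay closest to that of PLIN3. Likeness was the Euclidean distance over the 2 ratios from 3 libraries. TUBA1C, a tubulin whose reads can be shared with near-identical copies, had 614, 182 and 192 counts in PPAT-CM, PVAT-CM and control-CM, at a distance of 0.034. HSD17B4, a peroxisomal enzyme of fatty acid oxidation, had 13708, 4246 and 4344 counts, at 0.043.

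The wider neutral lipid machinery and a list of hypoxia targets were described with 8 lists holding 134 distinct genes, of which 94 were measured. The 94 include the 7 measured genes of the 9 and 15 measured genes of the hypoxia list. In PPAT-CM against control-CM, 12 of the 94 (12.8%) passed 1.5-fold upward and 13 (13.8%) downward, beside 12.0% and 8.71% of all genes. The hypoxia list supplied 2 of these 12 higher genes and 7 of the 13 lower ones, and PLIN3 and DGAT2 were among the 12. In PVAT-CM against control-CM 1 (1.06%) was higher and 4 (4.26%) lower, 3 of these 4 from the hypoxia list, beside 3.15% and 3.49% of all genes. Triglyceride synthesis had a median log2 ratio of 0.00 in PPAT-CM against control-CM over 12 measured genes. In that comparison GPAT4, the ER enzyme that adds the first fatty acid to glycerol phosphate, passed 1.5-fold beside DGAT2, and no other measured gene of the list did. It had 1869 counts in PPAT-CM, 930 in PVAT-CM and 968 in control-CM, and was 1.59-fold higher in PPAT-CM than in control-CM (1.47 to 1.72). GPAM, the mitochondrial enzyme of that same step, had 338, 401 and 371 counts and its PPAT-CM level was 1.53-fold lower than that in PVAT-CM (1.32 to 1.77).

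Triglyceride breakdown had a median of -0.01 over 10 measured genes in PPAT-CM against control-CM, and PNPLA7, a lysophospholipase of the PNPLA2 family, was the measured gene past 1.5-fold. It had 876 counts in PPAT-CM, 891 in PVAT-CM and 1401 in control-CM, 1.94-fold lower in PPAT-CM (1.78 to 2.11) and 1.48-fold lower in PVAT-CM (1.36 to 1.61) than in control-CM. ABHD5, the coactivator of PNPLA2, was picked out after its values were seen. It had 883, 513 and 491 counts, and was 1.48-fold higher in PPAT-CM than in control-CM (1.33 to 1.66). Of the 2 inhibitors of PNPLA2 in the list, HILPDA and G0S2, G0S2 had at most 1 count in any library.

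Droplet assembly at the ER had a median of 0.12 over 19 measured genes in PPAT-CM against control-CM. LDAF1, the seipin partner at sites of droplet birth, had 725 counts in PPAT-CM, 228 in PVAT-CM and 224 in control-CM. Like PLIN3 it was high in PPAT-CM alone, 2.67-fold above control-CM (2.30 to 3.12) and 2.47-fold above PVAT-CM (2.12 to 2.87). VMP1, an ER lipid scramblase, was 1.87-fold higher in PPAT-CM than in control-CM (1.75 to 2.00). METTL7A, a methyltransferase-like protein of the ER and droplets, had 280, 437 and 492 counts and was 2.13-fold lower in PPAT-CM than in control-CM (1.84 to 2.48).

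The cholesterol ester list, in which SOAT1 sits, had a median of 0.07 over 11 measured genes, with 2 (18.2%) at least 1.5-fold higher and 2 (18.2%) lower in PPAT-CM than in control-CM, beside 12.0% and 8.71% of all genes. ABCA1, which exports cholesterol, had 175 counts in PPAT-CM, 53 in PVAT-CM and 39 in control-CM, 3.70-fold higher in PPAT-CM than in control-CM (2.60 to 5.38). The other higher gene was NCEH1, a cholesterol ester hydrolase named here after its values were seen, with 173, 81 and 83 counts. NPC1, which moves cholesterol out of lysosomes, was 1.96-fold lower in PPAT-CM than in control-CM (1.67 to 2.30), and the sterol carrier STARD4 was the other lower gene, at 282, 474 and 613 counts. ABCG1, another cholesterol exporter, was 1.77-fold lower in PVAT-CM than in control-CM (1.31 to 2.41).

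Fatty acid uptake, binding and activation had a median of -0.24 over 13 measured genes in PPAT-CM against control-CM, but a mean of 0.10, and the median was 0.01 with no count filter. With total counts it was 0.00, where the median of all genes was 0.27. ACSL5, an acyl-CoA synthetase of ER and mitochondria, had 130 counts in PPAT-CM, 18 in PVAT-CM and 10 in control-CM, 10.7-fold higher in PPAT-CM than in control-CM (5.65 to 22.9). It passed the filter through the PPAT-CM library alone. ACSL6 and ACSL4 were 1.83-fold (1.29 to 2.60) and 1.75-fold lower (1.36 to 2.28) in PPAT-CM than in control-CM. CD36 and FABP4, a fatty acid receptor and carrier of adipocytes, had 0 counts in every library.

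The list of PPAR targets also holds the receptor genes PPARA, PPARD, PPARG and RXRA, all measured. Its median was 0.00 over 14 measured genes, receptors included, in PPAT-CM against control-CM. SLC25A20, the acylcarnitine carrier, had 311 counts in PPAT-CM, 151 in PVAT-CM and 160 in control-CM, and was 1.60-fold higher in PPAT-CM than in control-CM (1.32 to 1.95). CPT1A, the entry enzyme of fatty acid oxidation and chosen after its values were seen, had 2784, 2536 and 2705 counts in PPAT-CM, PVAT-CM and control-CM. Its log2 ratio of PPAT-CM to control-CM was -0.24.

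Hypoxia targets were set beside HILPDA, which is one of them, in a list that also holds the hypoxia-inducible factor genes HIF1A and EPAS1. Over 15 measured genes of that list, without HILPDA, the median log2 ratio was -0.56 in PPAT-CM against control-CM, with 2 genes (13.3%) at least 1.5-fold higher and 7 (46.7%) lower, beside the 12.0% and 8.71% of all genes. HILPDA itself was at 0.29, with an interval that includes no difference. The largest ratio belonged to NDUFA4L2, with 1604 counts in PPAT-CM, 4304 in PVAT-CM and 11421 in control-CM, 8.63-fold lower in PPAT-CM (8.19 to 9.10) and 2.49-fold lower in PVAT-CM than in control-CM. ADM was 1.97-fold lower (1.44 to 2.72) and the glucose transporter SLC2A1 1.85-fold lower (1.63 to 2.09) in PPAT-CM than in control-CM. The 2 higher genes, EGLN3 and EGLN1, are named here after their values were seen. EGLN3 was 1.64-fold higher (1.38 to 1.95) and EGLN1 1.55-fold higher (1.41 to 1.7) in PPAT-CM than in control-CM. Their log2 ratios, 0.71 and 0.63, were above that of HILPDA. Both genes were also higher in PVAT-CM than in control-CM, by less than 1.5-fold. In PVAT-CM against control-CM the list median was -0.02, with 3 of the 15 genes at least 1.5-fold lower and 0 higher, beside 3.49% and 3.15% of all genes. The list mean there was -0.20, and with total counts the list median was 0.11, where that of all genes was 0.15. ADM was 1.71-fold lower (1.23 to 2.38) and CA12 1.64-fold lower (1.40 to 1.92) in PVAT-CM than in control-CM. ANKRD37 in PPAT-CM was 1.78-fold lower than in PVAT-CM (1.42 to 2.23). Whether HILPDA differs from this list beyond the spread between cultures was not tested.

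**Figure D5:**
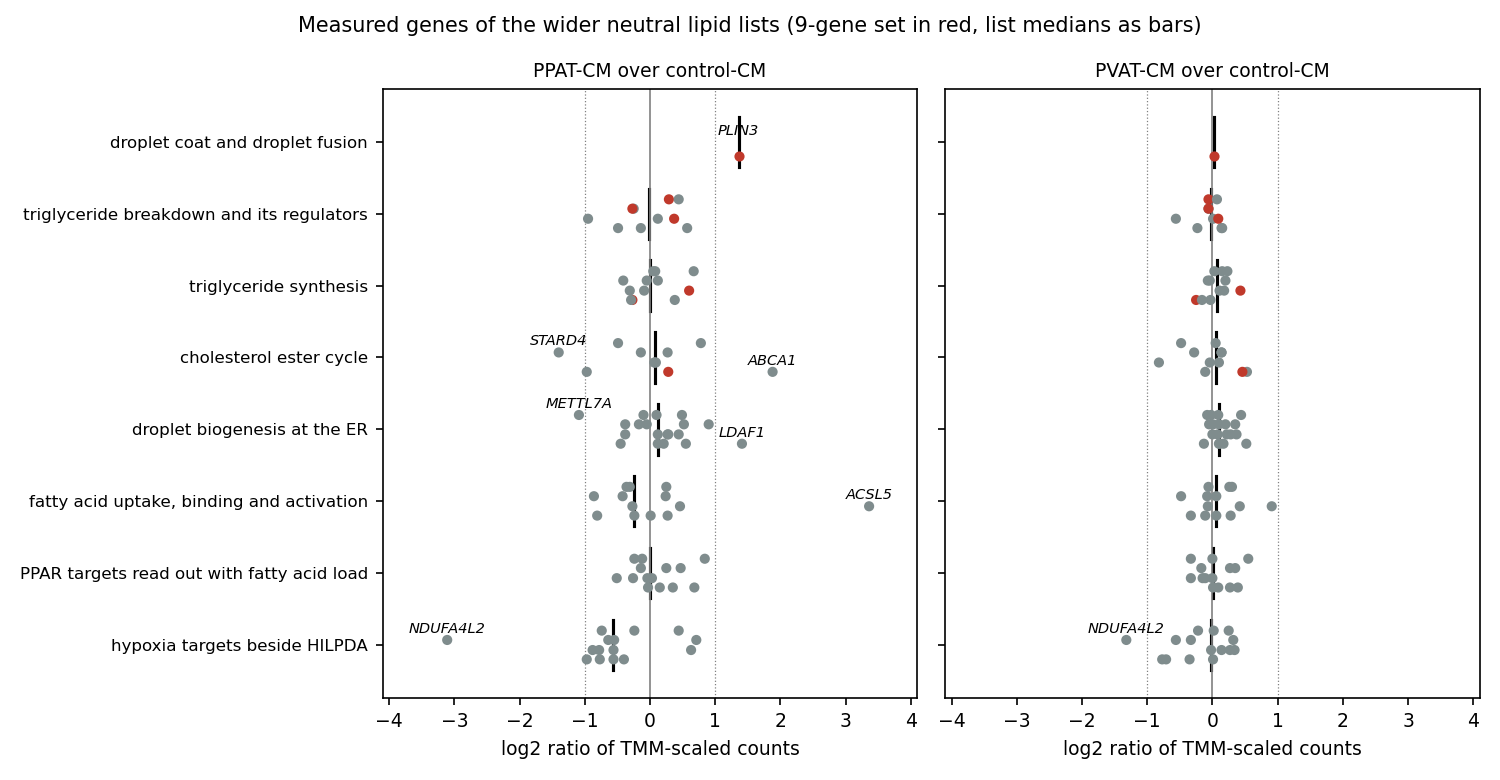
Log2 ratios of TMM-scaled counts for the measured genes of the 8 wider lists, PPAT-CM over control-CM on the left and PVAT-CM over control-CM on the right, with genes of the 9-gene set in red, black bars at list medians and dotted lines at 2-fold. PLIN3, LDAF1, ABCA1 and ACSL5 lie past 2-fold higher in PPAT-CM, STARD4, METTL7A and NDUFA4L2 past 2-fold lower, and in PVAT-CM only NDUFA4L2 does.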

How the data were processed

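RNA sequencing of 3 LNCaP libraries, 1 per medium, was analysed. The deposited values are whole-number counts per Ensembl gene and were taken as raw, since they are whole and their library totals differ. No label or header describes a normalization by the authors. The submitters' processing notes name FastQC, Trimmomatic, HISAT2, featureCounts, edgeR and the GRCh38 build. Which versions, annotation and strand setting were used is not given in the sources used here. A deposited count of an overlapping or antisense gene can therefore include reads of its neighbour. Of 58884 rows, 58472 had a symbol and 58611 matched GENCODE release 29, which gave coordinates and exon lengths.

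Counts were scaled to CPM with TMM factors (edgeR 4.0.16, R 4.3.3) of 1.08 in PPAT-CM, 1.01 in PVAT-CM and 0.917 in control-CM. Genes with a mean count of at least 50 were kept, 12256 in all. Log2 ratios used a pseudocount of 0.5. Single-gene folds are ratios of scaled counts with exact conditional binomial 95% intervals, levels carry exact Poisson intervals, and count ratios within libraries carry exact binomial or conditional odds ratio intervals. They treat reads as independent and cover counting error only. A count of 0 was set to a floor of 3 counts per library. With no residual degrees of freedom edgeR gives no test, so 2-fold and 1.5-fold thresholds were used, read against the share of all genes past them. The ratio steps were tested on simulated Poisson counts with the library sizes taken as known. That run therefore could not test the TMM scaling or any difference between cultures. Python 3.11.15, numpy 2.4.6, pandas 2.3.3, scipy 1.17.1 and matplotlib 3.10.9 were used.

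The 9 genes and the wider lists were chosen with earlier results of these data known. All 9 were described, with up to 3 further measured genes per list and comparison with the largest ratio past 1.5-fold, and the 3 genes nearest in pattern to a member past 2-fold. Some genes this rule names are not reported here. Alternatives were DESeq2 1.42.0 size factors, total counts, upper quartile factors, TMM without mitochondrial genes or on protein-coding nuclear genes, other count filters (10, 200 or none), thresholds of 1.5-fold and 3-fold, a pseudocount of 5, a threshold that also asks for an interval without 1, and list means.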

Additional observations from a re-analysis of the deposited data

How the results depend on the processing

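PLIN3 stayed past 2-fold higher in both comparisons with PPAT-CM under every scaling and pseudocount tried, with log2 ratios of 1.29 to 1.60 against control-CM and 1.29 to 1.45 against PVAT-CM. The number of lipid droplet genes at least 2-fold higher in PPAT-CM than in control-CM became 2 at a 1.5-fold threshold and 0 at 3-fold, and against PVAT-CM it became 0 at 3-fold. Once the filter was lowered to a mean of 10, or dropped, 1 lipid droplet gene, LIPE, was at least 2-fold lower in PVAT-CM than in control-CM, on 7 and 17 counts. The medians of the measured lipid droplet genes stayed within the counting interval of the middle gene, although that of PPAT-CM against PVAT-CM was -0.03 with a mean of at least 200, in place of 0.16. Total counts moved the median of all genes to 0.27 in PPAT-CM against control-CM, 0.15 in PVAT-CM against control-CM and 0.13 in PPAT-CM against PVAT-CM. The sign of PNPLA2 and HILPDA in PVAT-CM against control-CM and of DGAT1 in PPAT-CM against PVAT-CM turned with total counts, and that of PLIN3 in PVAT-CM against control-CM with upper quartile factors. Relative to the shifted medians, PNPLA2, HILPDA and DGAT1 stayed below the median gene there. No called value turned its sign.

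Counts of all genes at least 2-fold higher and lower in PPAT-CM against control-CM, 482 and 336, became 905 and 178 with total counts, 936 and 877 with a mean of at least 10, 248 and 144 with at least 200, and 5023 and 4541 with no filter. They were 1475 and 1068 at 1.5-fold and 153 and 63 at 3-fold. In PVAT-CM against control-CM, 57 and 54 became 100 and 31 with total counts, 301 and 475 with a mean of at least 10, 13 and 11 with at least 200, and 3880 and 4475 with no filter, and were 386 and 428 at 1.5-fold and 11 and 6 at 3-fold. In PPAT-CM against PVAT-CM, 300 and 180 became 780 and 587 with a mean of at least 10, 131 and 78 with at least 200, and 5076 and 4265 with no filter, and were 1049 and 744 at 1.5-fold and 97 and 27 at 3-fold. The cause of the filter effect was not tested. No paired analysis was possible because each medium has 1 library. Depth limits PLIN2 and LIPE, for which a 2-fold lower level in PVAT-CM than in control-CM lies inside the counting interval.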

Other observations

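Some genes of the wider lists were below the count filter in the mean over libraries, and they are given as values chosen after the counts were seen. MOGAT2, an acyltransferase that makes diacylglycerol from monoacylglycerol in intestine, had 49 counts in PPAT-CM, 7 in PVAT-CM and 8 in control-CM, 5.05-fold higher in PPAT-CM than in control-CM (2.37 to 12.4). BSCL2, which encodes seipin, the partner of LDAF1, had 45, 20 and 20 counts, 1.86-fold higher in PPAT-CM than in control-CM (1.07 to 3.32). PDK4 and ANGPTL4, which fatty acids switch on through PPARs in many cell types, had 1, 0 and 0 counts and 27, 10 and 12 counts in PPAT-CM, PVAT-CM and control-CM. The ratio of ANGPTL4 in PPAT-CM to control-CM had an interval that includes 1 (0.909 to 4.02).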
